A study of Homo sapiens with 6 samples.

Results

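IL18, its relatives in the interleukin-1 family and the protease that matures IL18 and IL1B were read in KYSE30 cells after siRNA against MTA2 and after a control siRNA. KYSE30 is a human cell line established from an oesophageal squamous cell carcinoma. The set holds 10 of the 19148 genes on the array, and the array carries them on 33 of its 34558 rows. The genes were taken by their deposited symbol: the ligands IL18, IL1A, IL1B and IL33, the inhibitors IL1RN and IL18BP, the receptor chains IL18R1, IL1R1 and IL1RAP, and the protease CASP1. The set was chosen by the measured IL18 level, which had read lower after MTA2 siRNA in earlier work on these data, so the IL18 difference between the groups is given here as a description, with no test.

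The MTA2 siRNA group held 3 samples (samples 4, 5 and 6) and the control siRNA group 3 (samples 1, 2 and 3). Per the labels, every culture received its siRNA at a printed dose of 20 nmol/ml for 48 h with Lipofectamine, in RPMI1640 with serum and penicillin. The label field names Cy5 for MTA2 siRNA samples 4 and 6 and for control sample 2, and Cy3 for MTA2 siRNA sample 5 and for control samples 1 and 3, although the protocol describes a one-colour kit. Only 1 siRNA sequence was used per group. The labels do not tell separate cultures from repeat preparations of one culture, so the p-values cover only the spread seen among these 6 arrays, and that spread may be technical.

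The antisense strands below are shown because they define the groups. They are given 5′ to 3′ as the labels print them, with the seed (bases 2 to 8) in capitals and the final overhang as tt.
MTA2 siRNA antisense: aUAGACGUaaucucccacctt
control siRNA antisense: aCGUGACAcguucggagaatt

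IL18, IL1A, IL1B and IL33 are cytokines that squamous epithelium can hold in its cytoplasm or nucleus and release on damage. IL18 and IL1B are made as inactive precursors that caspase-1 cleaves once an inflammasome has activated it. IL1A and IL1B signal through IL1R1 paired with the accessory chain IL1RAP, which also serves the IL33 receptor, while IL18 binds IL18R1. IL1RN blocks IL1R1 without signalling, and the secreted protein IL18BP captures IL18. The array reads RNA, so cleavage and release were not measured.

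All values below are the authors' normalised log2 intensities, in which 1 unit is a 2-fold change in signal, and the rows of a gene were averaged on that scale. The 6 column medians lay between 10.44 and 10.45, and the scale ran from -0.83 to 15.996. No detection call was used, and the number of arrays limits the precision. MTA2 itself read 13.12, 13.18 and 13.52 in the samples labelled MTA2 siRNA, against 12.92, 13.13 and 13.00 in the controls. The targeted transcript was thus not lower on its single row, and every direction below refers to the samples as labelled. Squamous keratins were bright, with KRT5 at 13.59 ± 0.056 in MTA2 siRNA samples and 13.57 ± 0.20 in controls (SD, n = 3 each). TP63, another of the 10 squamous markers, read 9.46 ± 0.31 in MTA2 siRNA samples and 9.51 ± 0.34 in controls (SD, n = 3 each). Averaged over all 10, single samples read 11.44 to 11.85 (MTA2 siRNA) and 11.70 to 11.87 (controls). The 6 endothelial markers averaged higher, at 12.47 to 12.52 and 12.36 to 12.48. The lymphoid and fibroblast lists averaged lower. Brightness on the array thus did not single out squamous markers. Averaged over the 8 myeloid markers, single samples read between 10.61 and 10.87 in the MTA2 siRNA group and between 10.59 and 10.79 in the control group, around the median gene level of 10.47. Single markers ranged from LYZ, at 8.18 ± 0.76 in MTA2 siRNA samples and 8.72 ± 0.13 in controls, to CD68, at 14.24 ± 0.54 in MTA2 siRNA samples and 14.37 ± 0.38 in controls (SD, n = 3 each), while PTPRC read 10.17 ± 0.15 in MTA2 siRNA samples and 10.09 ± 0.19 in controls (SD, n = 3 each).

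Of the 10 genes, only IL18 did not overlap between the groups. The set was chosen because IL18 read lower, so that separation is a description. The IL18 average read lower in all 3 MTA2 siRNA samples, and the other 9 genes overlapped between the groups in every case. Across the array 4.00% of genes read lower in all MTA2 siRNA samples than in all controls, and 9.43% did not overlap in either direction. In limma, 0 of the 9 genes passed an adjusted p of 0.05 (lowest limma adjusted p = 0.943) and 0 had an unadjusted p under 0.05. The same fit called 0 of 19148 genes (0%), with 719 (3.75%) at an unadjusted p under 0.05. Of the 10 differences, 5 were positive and 5 negative, with a median of 0.013, beside a median of 0.029 over all genes. In such bulk samples, fewer cells of a type and less RNA per cell cannot be told apart.

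**Figure D1:**
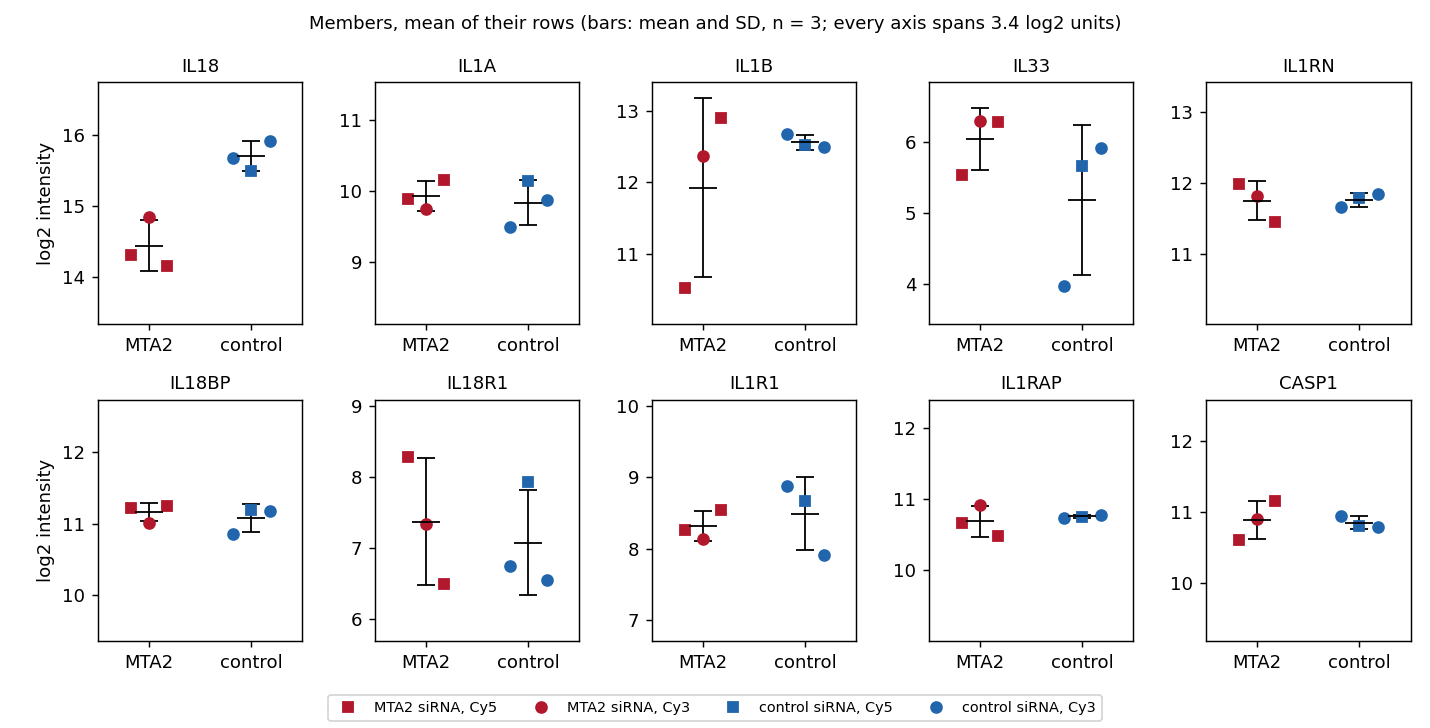
Normalised log2 intensity of the 10 genes, each the mean of its array rows, in the MTA2 siRNA samples (red) and the control siRNA samples (blue); squares are Cy5 and circles Cy3, and bars are the mean and SD of 3 samples. IL18 is the panel whose groups do not overlap, and IL1B has 1 low MTA2 siRNA sample, at 10.51.

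IL18 averaged 14.31, 14.84 and 14.16 in MTA2 siRNA samples 4, 5 and 6, against 15.67, 15.50 and 15.92 in control samples 1, 2 and 3. The highest MTA2 siRNA value lay below the lowest control. In controls 1 and 3, 1 of the 2 rows stood at the top of the scale, so those averages are lower bounds. The means were 14.44 ± 0.36 in MTA2 siRNA samples and 15.70 ± 0.21 in controls (SD, n = 3 each), a difference of -1.26. The Cy3 samples alone, sample 5 against controls 1 and 3, gave -0.95. The Cy5 samples alone, samples 4 and 6 against control 2, gave -1.26. Each of these 2 values thus rests on a single array on 1 side. A fit with dye as a block gave -1.11.

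The 2 IL18 rows reached that average in opposite ways. RefSeq lists NM_001562 and NM_001243211 as transcript variants of the gene, and the shorter protein encoded by the second lacks an in-frame stretch of the precursor. The NM_001562 row read 15.69, 14.34 and 15.76 in MTA2 siRNA samples 4, 5 and 6, against 15.99, 15.51 and 15.99 in control samples 1, 2 and 3. Only the Cy3 sample 5 was low, and the groups overlapped. The NM_001243211 row read 12.93, 15.34 and 12.56 in MTA2 siRNA samples 4, 5 and 6, against 15.35, 15.48 and 15.84 in control samples 1, 2 and 3. Here the Cy5 samples 4 and 6 were low, while sample 5 lay just under the lowest control. No MTA2 siRNA sample was clearly low on both rows.

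The gap between the rows puts this in 1 number per sample. NM_001562 minus NM_001243211 was 2.76, -0.99 and 3.20 in MTA2 siRNA samples 4, 5 and 6, against 0.64, 0.028 and 0.16 in control samples 1, 2 and 3. The gap of control 1 is a lower bound, since NM_001562 stood at the top of the scale there. In control 3 NM_001562 stood at the top and NM_001243211, at 15.84, close to it, so the true gap there could be larger or smaller. The gap ranged over 4.20 units across the 6 samples, where the median over the 3837 genes with exactly 2 rows was 1.15 and 96 of them (2.50%) ranged more widely. Since this gap uses the values that chose IL18, it is a description.

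The row differences were -0.57 for NM_001562 and -1.95 for NM_001243211. For NM_001562 the difference was -1.65 within the Cy3 samples and 0.22 within the Cy5 samples, and for NM_001243211 it was -0.26 and -2.74 in the same order. The NM_001562 difference was -0.11 without sample 5, and the NM_001243211 difference -1.42 without sample 6 and -2.81 without sample 5. Both rows were among the brightest: 0.255% of all rows had a higher mean than NM_001562 and 1.72% a higher mean than NM_001243211. The NM_001562 values of 15.99 in controls 1 and 3 stand at the top of the scale, where between 37 and 42 rows per sample lay within 0.1 of the highest value in the table, so its control level there is a lower bound.

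**Figure D2:**
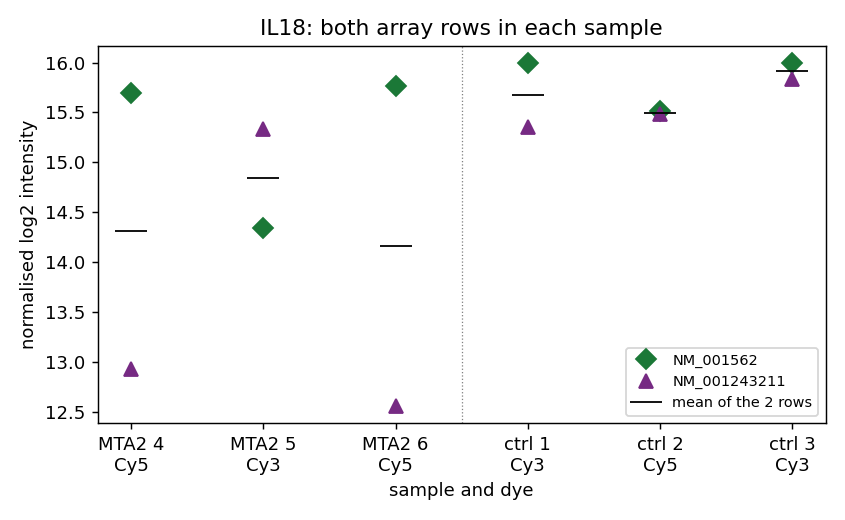
Normalised log2 intensity of the IL18 rows NM_001562 (diamonds) and NM_001243211 (triangles) in each sample, MTA2 siRNA on the left, with the mean of the rows as a dash. NM_001562 is low in the Cy3 sample 5 (14.34) and NM_001243211 in the Cy5 samples 4 and 6 (12.93 and 12.56). The control values of NM_001562 at 15.99 are lower bounds.

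The genes most like IL18 over the 6 samples were RPS27A, PIK3R4 and HSPA4, chosen as the highest Pearson r among 9573 genes above the median level. RPS27A, which encodes a ubiquitin fusion with a ribosomal protein, had r = 0.991, PIK3R4, a regulatory subunit of a class III lipid kinase complex, 0.979, and HSPA4, a heat shock chaperone, 0.979. RPS27A read 14.00, 14.54 and 14.09 in MTA2 siRNA samples 4, 5 and 6, against 15.18, 15.02 and 15.26 in control samples 1, 2 and 3. With 6 points that share their arrays and dyes, 62 of these genes (0.648%) had an r above 0.9. The ranking uses the values that chose IL18, so it is a description. The IL18 average itself joins 2 rows whose r with each other was -0.16. Among the other 9 genes of the set r ran from -0.45 for IL33 to 0.54 for IL1RAP.

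IL1B, the other ligand that needs caspase-1, differed through 1 sample. Its row read 10.51, 12.37 and 12.90 in MTA2 siRNA samples 4, 5 and 6, against 12.69, 12.52 and 12.49 in control samples 1, 2 and 3. Sample 4 lay nearly 2 units below every other sample, and sample 6 above every control. The difference was -0.64 (SE 0.57, 95% interval -1.97 to 0.70, limma adjusted p = 0.943), and without sample 4 it was 0.069. Sample 4 also had many dim rows, 271 under 5 on the log2 scale, against 29 and 79 in MTA2 siRNA samples 5 and 6 and 375, 87 and 80 in controls 1, 2 and 3, and the part this plays was not tested.

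IL1A, which is active without cleavage by caspase-1, hardly differed. It read 9.90, 9.75 and 10.16 in MTA2 siRNA samples 4, 5 and 6, against 9.50, 10.14 and 9.88 in control samples 1, 2 and 3. The groups overlapped, and the difference was 0.095 (SE 0.22, interval -0.42 to 0.61, limma adjusted p = 0.961). All 3 Cy5 samples read above all 3 Cy3 samples, by 0.36 in the fit with both terms, and with dye as a block the siRNA difference was -0.026.

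IL33, an alarmin stored in the nucleus, was dim on all 3 of its rows: 98.3% to 99.8% of rows were brighter. The averages were 5.54, 6.30 and 6.28 in MTA2 siRNA samples 4, 5 and 6, against 3.98, 5.67 and 5.92 in control samples 1, 2 and 3. Control 1 lay far below the rest, and without it the difference of 0.86 (SE 0.52, interval -0.37 to 2.08, limma adjusted p = 0.943) was 0.25. It was 0.32 after a further quantile normalisation, 1.36 within the Cy3 samples and 0.25 within the Cy5 samples. That control read 0.55 on the NM_001199641 row, against 4.47 to 6.24 in the other 5 samples.

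The NM_001199640 row of IL33 was the only row outside IL18 whose groups did not overlap, 1 of 31, where 8.83% of all rows did not. It read 7.39, 6.69 and 7.51 in MTA2 siRNA samples 4, 5 and 6, against 6.52, 6.20 and 5.63 in control samples 1, 2 and 3. The lowest MTA2 siRNA value was 6.69 and the highest control 6.52, so the gap between the groups was small beside the spread within them. The difference of 1.08 (SE 0.32, interval 0.33 to 1.82) did not pass the test (limma over all rows, adjusted p = 0.967). That interval is not adjusted for the number of rows. With each sample left out the difference ran from 0.84 to 1.33.

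The inhibitors did not differ beyond their spread. IL1RN averaged 11.98, 11.82 and 11.45 in MTA2 siRNA samples 4, 5 and 6, against 11.66, 11.79 and 11.85 in control samples 1, 2 and 3. The control values lay inside the MTA2 siRNA range, and the difference was -0.015 (SE 0.19, interval -0.46 to 0.43, limma adjusted p = 0.992). Sample 6 was high on one IL1RN row and low on another. It read 12.57 on NM_173841, where the other 5 samples read 11.61 to 11.91, and 10.36 on NM_173842, where they read 11.82 to 11.99. The NM_173842 transcript encodes the secreted form of the antagonist, while NM_173841 encodes an intracellular form. These rows differed between the groups by 0.36 for NM_173841 and by -0.52 for NM_173842, and without sample 6 by 0.099 and 0.0075.

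IL18BP, the soluble decoy for IL18, averaged 11.22, 11.01 and 11.24 in MTA2 siRNA samples 4, 5 and 6, against 10.85, 11.19 and 11.18 in control samples 1, 2 and 3. The groups overlapped, with a difference of 0.085 (SE 0.17, interval -0.32 to 0.49, limma adjusted p = 0.959). The difference ran from -0.27 to 0.52 over its 7 rows. The 4 bright rows, with means of 12.41 to 13.27, differed by -0.27 to -0.013, and the 3 dimmer ones, with means of 8.40 to 9.68, by 0.086 to 0.52.

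The receptor chains that bind ligand were dim and overlapped between the groups. IL18R1 read 8.28, 7.33 and 6.49 in MTA2 siRNA samples 4, 5 and 6, against 6.74, 7.93 and 6.55 in control samples 1, 2 and 3. Both groups spread over more than 1 unit, and the difference of 0.29 had an interval of -0.95 to 1.54 (SE 0.53, limma adjusted p = 0.954). It was -0.16 without sample 4. IL1R1 read 8.26, 8.13 and 8.54 in MTA2 siRNA samples 4, 5 and 6, against 8.89, 8.67 and 7.91 in control samples 1, 2 and 3. Its controls enclosed the MTA2 siRNA samples, and the difference was -0.18 (SE 0.28, interval -0.84 to 0.48, limma adjusted p = 0.949), or 0.022 without control 1.

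IL1RAP, the shared accessory chain, had the steadiest controls of the set. It averaged 10.67, 10.92 and 10.48 in MTA2 siRNA samples 4, 5 and 6, against 10.73, 10.75 and 10.78 in control samples 1, 2 and 3. The difference was -0.066 (SE 0.17, interval -0.46 to 0.33, limma adjusted p = 0.964). Behind that flat average the differences of its 6 rows ran from -0.45 for NM_002182 to 0.42 for NM_001167928. Those extremes varied in size between settings, and the cause was not tested. With dye as a block they were -0.089 and 0.16. With each sample left out NM_002182 ran from -0.94 to -0.16 and NM_001167928 from 0.24 to 0.67.

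CASP1, the protease that matures IL18 and IL1B, averaged 10.61, 10.90 and 11.15 in MTA2 siRNA samples 4, 5 and 6, against 10.95, 10.81 and 10.79 in control samples 1, 2 and 3. The MTA2 siRNA samples lay on both sides of the controls, and the difference was 0.041 (SE 0.19, interval -0.40 to 0.48, limma adjusted p = 0.981). Its 7 rows had means of 10.67 to 11.07 and differed by -0.17 to 0.40. The widest, NM_033294, the delta variant, was set by control 2, which read 9.76 there, against 10.71 to 11.11 in the other 5 samples, and its difference was 0.0075 without that control.

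**Figure D3:**
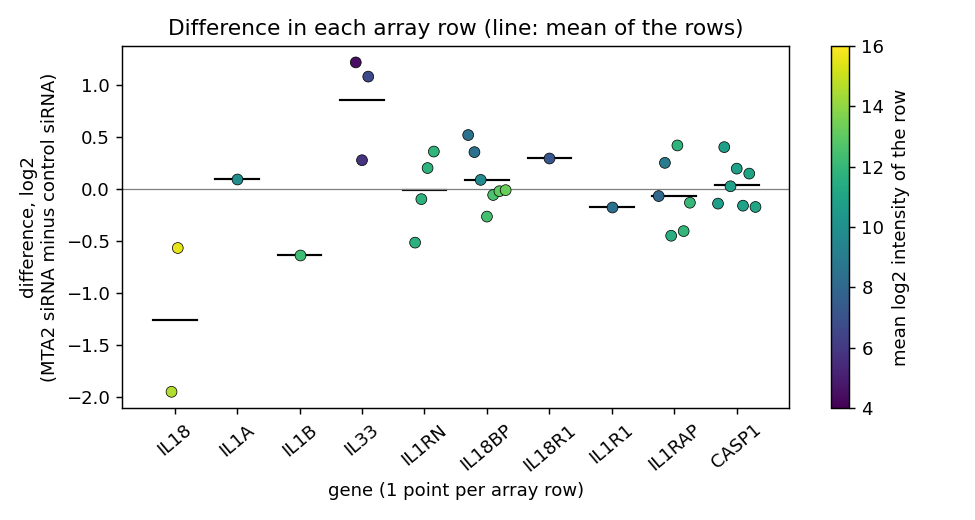
Difference between MTA2 siRNA and control siRNA samples on the log2 scale for each of the 33 array rows (points, coloured by mean log2 intensity) and for the row average of each gene (lines). The IL18 rows lie at -0.57 and -1.95, while the rows of IL1RN, IL18BP, IL1RAP and CASP1 fall on both sides of 0.

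Rows of a single gene often disagreed. The siRNA difference spanned 1.38 over the IL18 rows, beside a median span of 0.37 over the 7440 genes with 2 or more rows. A wider span was found in 4.22% of those genes, as a description, since this uses the values that chose IL18. The spans were 0.94 for IL33, 0.87 for IL1RN, 0.87 for IL1RAP, 0.78 for IL18BP and 0.57 for CASP1, all above that median, although a span grows with the number of rows. As a description over 6 samples, the median Pearson r between rows of a gene was 0.40 for CASP1, 0.22 for IL18BP, 0.099 for IL1RAP, 0.014 for IL1RN, -0.015 for IL33 and -0.16 for IL18.

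The dye named in the labels, which was not used to choose the genes, was tested on every row in a limma fit with siRNA in the model. It passed an adjusted p of 0.05 in 120 of 34558 rows (0.347%) and in 0 of the 33 rows of this set (lowest limma adjusted p = 0.153). At an unadjusted p under 0.05 there were 4 of 33 rows (12.1%), beside 17.2% of all rows. Cy5 and Cy3 samples did not overlap in 7 of 33 rows (21.2%), beside 27.6% of all rows. With only 33 rows, the gaps to the array shares are small and were not tested.

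The smallest p of these belonged to 2 IL1RAP rows that went opposite ways. NM_002182, the transcript of the membrane-bound form, read 10.78, 10.96 and 11.35 in Cy5 samples 4, 6 and 2, against 12.35, 11.96 and 12.13 in Cy3 samples 5, 1 and 3. Every Cy5 sample was below every Cy3 sample, by -1.08 (SE 0.23, interval -1.65 to -0.51, limma adjusted p = 0.153). NM_001167928 read 12.36, 12.17 and 12.11 in Cy5 samples 4, 6 and 2, against 11.52, 11.42 and 11.28 in Cy3 samples 5, 1 and 3. Here every Cy5 sample was above every Cy3 sample, by 0.75 (SE 0.16, interval 0.35 to 1.16, limma adjusted p = 0.157). NM_134470, the transcript of the soluble form, overlapped between the dyes.

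**Figure D4:**
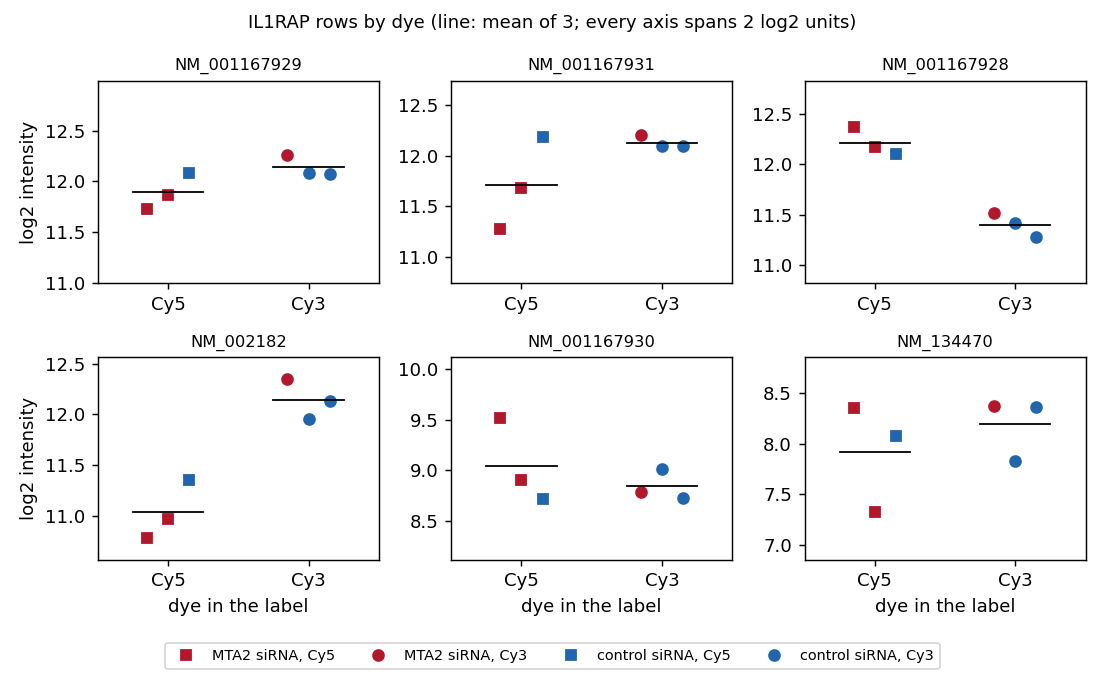
Normalised log2 intensity of the 6 IL1RAP rows in Cy5 and Cy3 samples, with MTA2 siRNA in red and control siRNA in blue and the mean of 3 samples as a line. NM_001167928 is higher and NM_002182 lower in every Cy5 sample than in every Cy3 sample, and the other 4 rows overlap.

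Whether the siRNA difference itself depended on dye was examined with an interaction term, added after the data were seen. The term rests on 1 MTA2 siRNA sample in Cy3 and 1 control in Cy5, so it cannot tell dye from a single unusual array. It passed in 0 of 34558 rows (0%), with 1464 rows (4.24%) at an unadjusted p under 0.05, and the lowest limma adjusted p in the set was 1.00. The IL18 rows use the values that chose IL18 and are left out of the next count. Of the 31 other rows of the set, only NM_033294 of CASP1 had an unadjusted p under 0.05. Control 2, the only Cy5 control, read low on that row, at 9.76. As a description, the IL18 rows had interaction values of 1.87 for NM_001562 and -2.48 for NM_001243211.

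The other genes of the pathway were read in 5 lists with 61 members, all measured. None passed an adjusted p of 0.05 in limma in either direction, and 3 had an unadjusted p under 0.05 (4.92%, beside 3.75% of all genes). In 8 of 61 the groups did not overlap, beside 9.43% of all genes. The list medians were 0.058 for the other ligands, 0.077 for the other receptors, 0.098 for the inflammasome genes, 0.059 for the signalling genes and -0.021 for the target genes, beside 0.029 over all genes.

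Among the 6 other ligands, 4 differences were positive and 2 negative. IL36G, an epithelial agonist, read 8.01, 8.10 and 7.98 in MTA2 siRNA samples 4, 5 and 6, against 8.24, 8.42 and 8.25 in control samples 1, 2 and 3. All MTA2 siRNA samples lay below all controls, at a dim level, by -0.27 (limma adjusted p = 0.943), but its brightest row differed by only -0.056, and a further quantile normalisation gave -0.62. IL1F10, also called IL-38, differed by 0.21 without overlap. Among the 7 other receptors, 5 differences were positive and 2 negative. IL1RL2, the receptor for the IL-36 cytokines, read 9.72, 9.75 and 10.34 in MTA2 siRNA samples 4, 5 and 6, against 9.22, 9.59 and 9.29 in control samples 1, 2 and 3. The groups did not overlap, with a difference of 0.57 (limma adjusted p = 0.943). IL1RAPL1, a neuronal relative, differed by 0.31 with overlap, by 0.098 without sample 6, by 0.54 without sample 5 and by -0.061 within the Cy3 samples.

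The inflammasome list, which holds sensors, adaptors and inhibitors that control CASP1 and the pore proteins that act after it, had 8 positive and 6 negative differences among 14 genes, and 4 genes did not overlap, all of them higher in MTA2 siRNA samples (5.43% of all genes read higher without overlap). NEK7, a kinase that binds the NLRP3 sensor, read 9.66, 9.56 and 9.92 in MTA2 siRNA samples 4, 5 and 6, against 9.09, 9.05 and 9.24 in control samples 1, 2 and 3. The difference was 0.59 (limma adjusted p = 0.943). PYCARD, the adaptor ASC that recruits CASP1, read 10.53, 10.40 and 10.57 in MTA2 siRNA samples 4, 5 and 6, against 9.94, 10.20 and 10.21 in control samples 1, 2 and 3. Its difference was 0.38 (limma adjusted p = 0.943). The other 2, named after their values were seen, were the sensor NLRP1, at 0.86 but 0.38 without control 1, and GSDMD, whose cleaved product forms membrane pores, at 0.31.

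The 19 signalling genes between receptor and NF-kB had 12 positive and 7 negative differences, all with overlapping groups. RELA, an NF-kB subunit, differed by -0.23 and ECSIT, an adaptor of TRAF6, by 0.19. The RELA difference was -0.099 without sample 6. The 15 genes that IL-1 is known to induce in epithelium had 7 positive and 8 negative differences. SOD2, a mitochondrial superoxide dismutase, differed by 0.29 without overlap, and ZC3H12A, an RNase that degrades cytokine transcripts, by 0.35 with overlap (limma adjusted p = 0.943 for each).

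**Figure D5:**
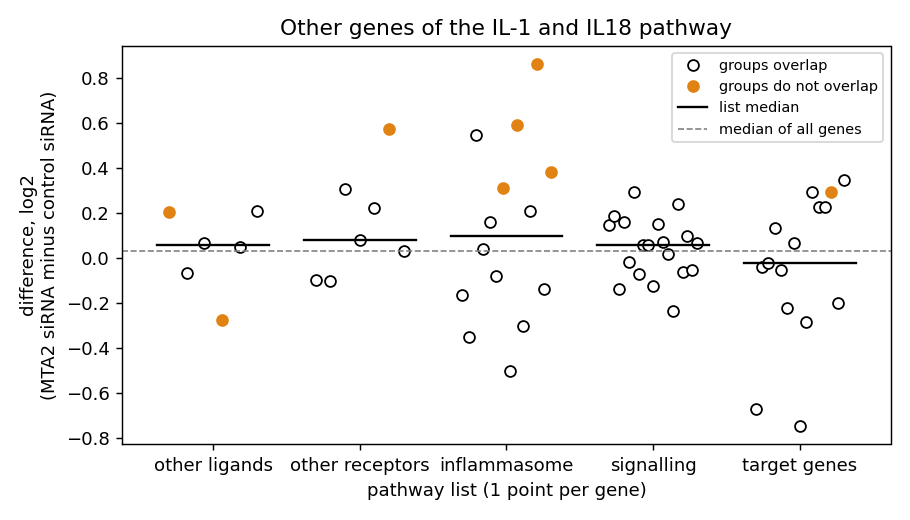
Difference between MTA2 siRNA and control siRNA samples on the log2 scale for the 61 pathway genes in 5 lists; filled points mark genes whose groups do not overlap, solid lines the list medians and the dashed line the median of all genes (0.029). The list medians lie between -0.021 and 0.098.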

How the data were processed

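Per the labels' protocols, RNA was labelled with a one-colour NimbleGen kit as double-stranded cDNA and scanned on a GenePix 4000B. The authors deposited normalised log2 intensities for 34558 rows, 1 column per sample, and a series value table identical to it (largest difference 0). Which background correction, normalisation and genome build they used is not given here. Rows were named through RefSeq (names only): 33809 by accession, 462 by current and 206 by older symbol, and 81 kept their deposited symbol. Rows of a gene were averaged (19148 genes).

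The siRNA groups were tested over all genes, with no filter or covariate, by limma 3.58.1 (lmFit and eBayes in R 4.3.3, two-sided), calling at a Benjamini-Hochberg adjusted p of 0.05. The dye was tested over all rows with siRNA in the model. The fits were tested on simulated data. Plots used matplotlib 3.10.9. The members and lists were chosen with earlier results of these data known. Named genes were the 10 members, MTA2, the 2 smallest p-values of each pathway list and the 3 genes most like IL18. KRT5, TP63, PTPRC, LYZ and CD68 were named as markers, and NLRP1 and GSDMD after their values were seen. Alternatives covered normalisation, filter, rows, variance, weights, dye, threshold and each sample left out.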

Additional observations from a re-analysis of the deposited data

How the results depend on the processing

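No paired analysis was possible because the sample numbers run from 1 to 6 and are not shared between the groups. IL18 was given no test, and none of the other 9 genes of the set was called in any fit run. Their lowest limma adjusted p lay between 0.574 (array weights) and 1.00 over those fits. Over all genes the count of 0 became 3 without control sample 2 and 1 without sample 6, labelled MTA2 siRNA, a range of 0 to 3 with each sample left out. The IL18 difference of -1.26 was -0.57 on its brightest row and -0.95 within the Cy3 samples, and -1.46 to -1.12 with each sample left out.

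Differences that did not pass changed sign as follows, and the cause was not tested. With dye as a block IL1A was -0.026. On the brightest row IL1RN was 0.36, IL18BP -0.013 and CASP1 -0.17. With array weights IL1RN was 0.026 and CASP1 -0.014. With each sample left out, IL1A ran from -0.073 to 0.24, IL1B from -1.12 to 0.069, IL1RN from -0.13 to 0.14, IL18BP from -0.029 to 0.16, IL18R1 from -0.16 to 0.73, IL1R1 from -0.47 to 0.022, IL1RAP from -0.18 to 0.037 and CASP1 from -0.090 to 0.18. Without control sample 1 and sample 4 together, the samples with most dim rows (chosen after seeing the data), IL1A was -0.053, IL1B 0.13, IL18BP -0.062, IL18R1 -0.33 and IL1R1 0.048, while CASP1, at 0.23, kept its sign. Within the Cy3 samples IL1RN was 0.067, IL18BP -0.0047, IL1RAP 0.16, IL1RAPL1 -0.061 and RELA 0.076, and within the Cy5 samples IL1A was -0.11 and IL18R1 -0.54. Other differences kept their sign but depended on the normalisation: quantile normalisation again gave 0.32 for IL33 and -0.62 for IL36G.

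The count of rows that differed by dye, 120, was 205 among rows above the median level, 673 with a trended robust variance, 191 with array weights, 357 without the siRNA term and 315 at an adjusted p of 0.10. It ran from 2 to 99 with each sample left out (2 without sample 5, 4 without control sample 1, 6 without control samples 2 or 3). The set had 0 such rows in every fit run, with the lowest limma adjusted p between 0.0557 (trended robust variance) and 0.389 (without sample 5). The series value table gave no separate result, being identical.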
